A study of Mus musculus with 26 samples.

Results

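The caveolins (Cav1, Cav2, Cav3) and the cavins (Cavin1, Cavin2, Cavin3, Cavin4) were followed as 7 genes of the 55341 listed for each library, chosen by name as the structural genes of caveolae, with the muscle members Cav3 and Cavin4 set against the other 5. The libraries came from C2C12 cells, a mouse myoblast line that fuses into myotubes when serum is withdrawn. RNA-seq was carried out on cells kept in growth medium (0 h) or moved to differentiation medium (DM) for 24 h. In the siRNA experiment, cells received a control siRNA (siCtrl) or one of 2 siRNAs against Smyd3 (siSMYD3#1, siSMYD3#2), with 3 libraries for each of the 6 conditions. In the clone experiment, the clone SMYD3 CL5, which carries HA- and Flag-tagged SMYD3 from the pREV retroviral vector, was compared with cells carrying that vector alone, with 2 libraries for each of the 4 conditions. SMYD3 CL5 was a single clone, so what is particular to the clone and what follows from SMYD3 cannot be told apart in it.

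Caveolae are small flask-shaped pits of the plasma membrane. Caveolins insert into the inner leaflet and oligomerise, and cavins are cytosolic proteins that coat the neck and bulb and stabilise the pit. Cav1 and Cav2 form caveolae in most tissues, while in skeletal muscle Cav3 takes over from Cav1 as fibres mature, and Cavin4 (formerly Murc) is the muscle cavin. Caveolae buffer membrane tension in muscle fibres, and mutations of CAV3 or CAVIN1 in people cause muscle disease.

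Library totals ran from 14315193 to 60398170 counts in the siRNA experiment and from 21124675 to 67853386 in the clone experiment. Levels are given in CPM, read counts scaled to a common library total after TMM normalisation, and levels of different genes are compared only per kilobase of exon. Smyd3 itself was measured first. It fell with siSMYD3#2, to between 6.41 and 9.43 CPM at 0 h against 20.3 to 22.1 CPM in siCtrl (log2 fold change −1.41, edgeR adjusted p = 0.000107), and to between 5.46 and 9.91 CPM at 24 h against 18.3 to 21.3 CPM (−1.51, edgeR adjusted p = 5.06e-05). It did not pass the test in the libraries labelled siSMYD3#1, at 17.4 to 20.1 CPM at 0 h and 15.6 to 19.7 CPM at 24 h (log2 fold changes −0.16 and −0.24, edgeR adjusted p = 0.785 and 0.414). Nor did it in the libraries labelled SMYD3 CL5 (0.29 and 0.36, edgeR adjusted p = 0.593 and 0.671), and the sources used here do not give the species of the cloned cDNA, so its reads may not count toward the mouse gene. Both labels are therefore used below as labels only, on the counts read here. The paper has other evidence on them: it followed SMYD3 protein by western blot and Smyd3 RNA by qPCR after siRNA. It also checked the tagged protein in its clones with FLAG and HA antibodies.

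In each siRNA condition 1 library was made from TRIzol RNA and 2 from NucleoSpin RNA, and the study's library list gives the TRIzol libraries an earlier passage, so extraction and passage cannot be told apart. All 8 clone libraries were TRIzol. Values below are named by extraction where they differ by it. The methods of the study call the libraries biological replicates, and p-values measure the spread between them. In RNA from whole cultures, fewer cells expressing a gene and less RNA per cell cannot be told apart.

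Per kilobase, Cavin1 was the most abundant member, with a mean over the 26 libraries of 216 CPM per kilobase. It was followed by Cav1 at 63.7, Cavin3 at 49.96, Cavin4 at 26.4, Cavin2 at 15.5 and Cav2 at 14.4 CPM per kilobase. Cav3 stood far below at 0.0798 CPM per kilobase. The order of Cavin4, Cavin2 and Cav2 differed between conditions. In siCtrl they had means of 13.7, 5.55 and 18.6 CPM per kilobase at 0 h and of 25.5, 37.6 and 15.0 at 24 h. The members also differed in how far they ranged over the libraries. Cavin1 varied least, its highest CPM being 1.86 times its lowest, and Cavin3 ranged 2.49-fold. Cav1 ranged 4.83-fold, Cav2 5.6-fold and Cavin4 7.14-fold. Cavin2 ranged 19.8-fold, from 7.49 to 149 CPM. Of the muscle members, Cavin4 was thus read in every library and Cav3 was at 0 in 12 of the 26.

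**Figure D1:**
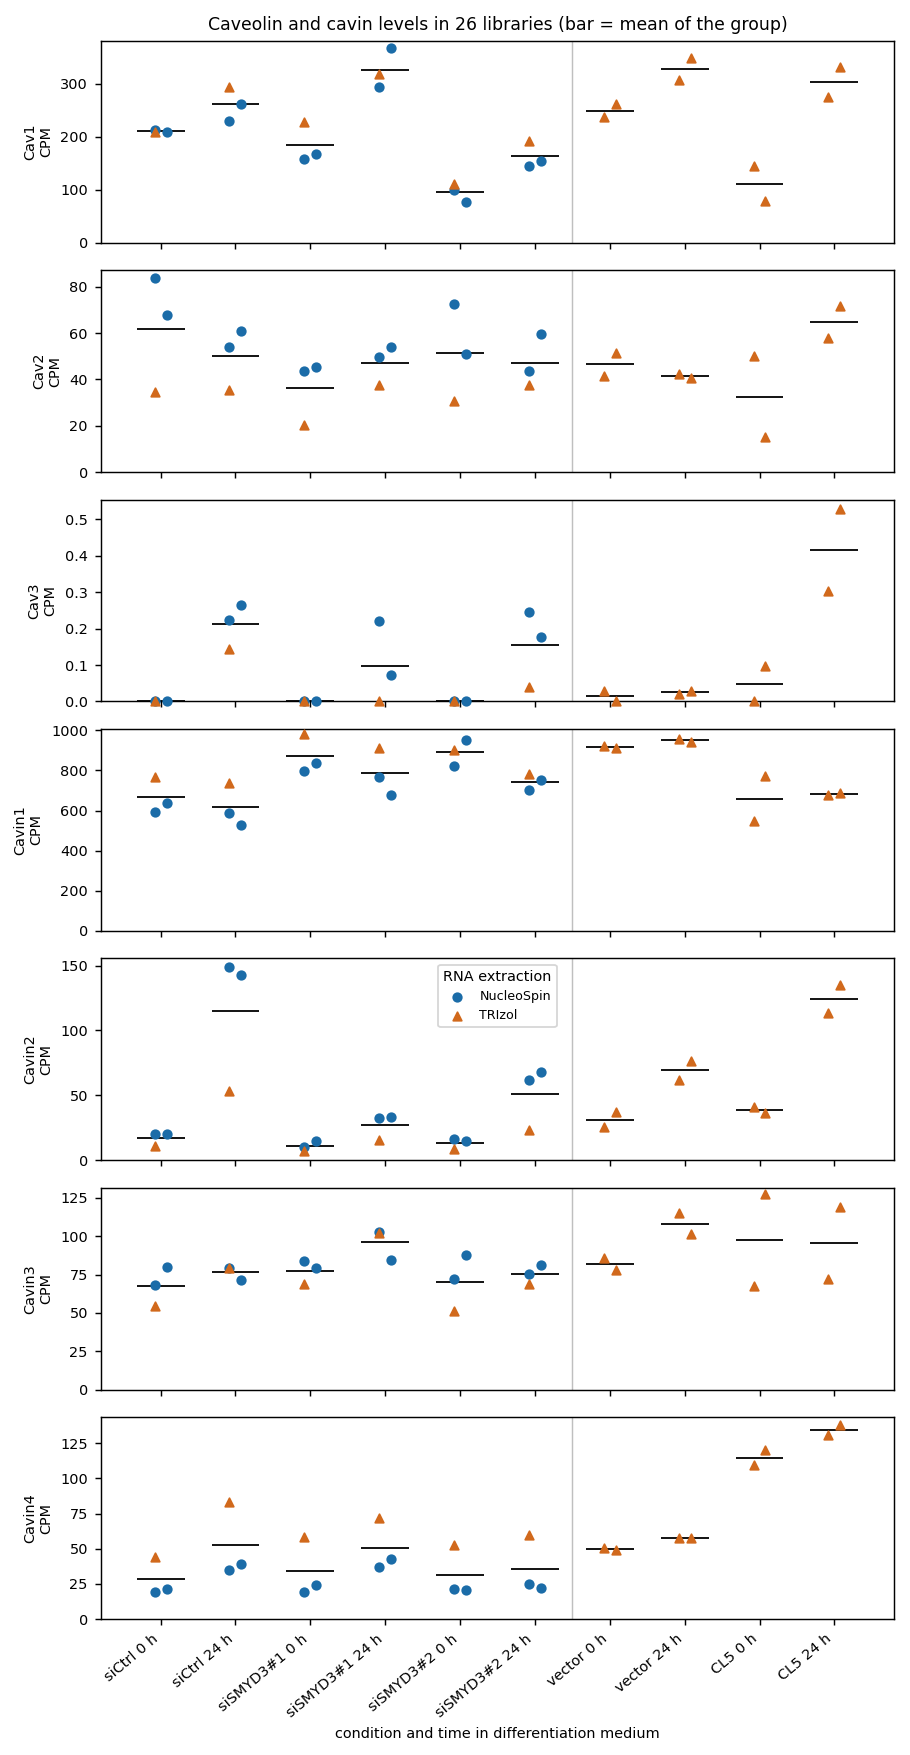
Level of each of the 7 genes (vertical axis, CPM, 1 panel a gene, each starting at 0) in the 10 conditions (horizontal axis). Points are libraries, circles for NucleoSpin and triangles for TRIzol RNA, and bars are group means. Cavin2 reaches 149 and 143 CPM in the NucleoSpin siCtrl libraries at 24 h, Cavin4 is highest in SMYD3 CL5 at 109 to 138 CPM, and Cav3 stays at or below 0.528 CPM.

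Cav3, the caveolin of mature muscle fibres (ENSMUSG00000062694), lies on chromosome 6 at 112459505 to 112472872, plus strand, of GRCm38. It had 0 counts in all 9 siRNA libraries at 0 h. At 24 h the siCtrl libraries held 4 (TRIzol), 5 and 4 counts. The libraries labelled siSMYD3#1 held 0 (TRIzol), 6 and 1 counts and those with siSMYD3#2 held 1 (TRIzol), 4 and 3 counts. All 3 conditions thus had some Cav3 RNA at 24 h and none was counted at 0 h, at a level where 3 counts in a library stand for 0.0433 to 0.219 CPM. The 3 libraries of a condition were summed, 3 counts were taken as the floor of the 0 h group and the 24 h counts were taken as read. On that reckoning Cav3 was at least 7.26-fold higher at 24 h in siCtrl. It was at least 2.31-fold higher in the libraries labelled siSMYD3#1 and at least 3.99-fold higher with siSMYD3#2. Of the 7 counts of siSMYD3#1, 6 came from 1 NucleoSpin library, and without it 1 count was left and no bound. Leaving out any other 24 h library, a choice made after the counts were seen, gave bounds of 2.44 and 4.13 for siSMYD3#1, 6.54 to 8.75 for siCtrl and 2.77 to 6.1 for siSMYD3#2. The 13 counts of siCtrl at 24 h did not separate from the 7 of siSMYD3#1 (ratio of siSMYD3#1 to siCtrl 0.481, exact 95% counting interval 0.163 to 1.3) or from the 8 of siSMYD3#2 (0.688, 0.247 to 1.79). These intervals cover counting error only, and the bounds leave out the counting error of the 24 h counts, so they are not confidence limits. Cav3 was below the low-count filter of the siRNA fit, so 6 of the 7 members were tested there and 7 of 7 in the clone fit.

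In the clone experiment, Cav3 had 1 and 0 counts in the vector cells at 0 h and 1 and 2 counts at 24 h. SMYD3 CL5 had 0 and 4 counts at 0 h and 18 and 12 at 24 h, the highest of any condition and apart from every other library (0.303 and 0.528 CPM). Summed, the 30 counts of SMYD3 CL5 at 24 h against the 3 of vector were a ratio of 14.4 (exact 95% counting interval 4.47 to 73.6), and against the 4 counts of SMYD3 CL5 at 0 h a ratio of 7.52 (2.65 to 29.4). Cav3 passed the filter of that fit through these 2 libraries, and neither difference passed the threshold over all genes (edgeR adjusted p = 0.136 and 0.68). Even there Cav3 made up 0.327% ± 0.0827 (SD, n = 2) of the summed caveolin level per kilobase.

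The 250 bases before the start of Cav3 are shown with those of the other muscle member, Cavin4, and of Cavin2, the member with the widest range. Sequence is from the RefSeq annotation of GRCm38.p6, 5′ to 3′ on the gene's strand, and capitals mark the E-box CANNTG, the motif read by MyoD and myogenin, which reads the same on both strands. The windows are chr6:112459255-112459504 for Cav3, chr4:48663264-48663513 for Cavin4 and chr1:51288876-51289125 for Cavin2, all on the plus strand.
Cav3: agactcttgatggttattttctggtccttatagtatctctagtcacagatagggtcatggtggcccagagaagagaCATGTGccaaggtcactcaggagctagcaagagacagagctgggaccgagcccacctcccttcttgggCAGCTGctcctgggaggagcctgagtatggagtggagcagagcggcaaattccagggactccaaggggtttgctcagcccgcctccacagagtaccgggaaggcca
Cavin4: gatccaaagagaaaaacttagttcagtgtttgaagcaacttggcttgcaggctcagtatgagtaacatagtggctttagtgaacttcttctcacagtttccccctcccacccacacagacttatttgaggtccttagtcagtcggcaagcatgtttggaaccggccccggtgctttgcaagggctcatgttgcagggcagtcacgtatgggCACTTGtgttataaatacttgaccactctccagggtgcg
Cavin2: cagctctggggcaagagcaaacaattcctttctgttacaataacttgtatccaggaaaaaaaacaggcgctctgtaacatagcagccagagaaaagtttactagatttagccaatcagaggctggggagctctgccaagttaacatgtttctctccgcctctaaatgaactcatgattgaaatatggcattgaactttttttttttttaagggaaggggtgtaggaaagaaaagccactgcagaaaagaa
The Cav3 window held 2 E-boxes, CATGTG at 174 bases and CAGCTG at 106 bases before the start. The Cavin4 window held 1, CACTTG at 39 bases, and the Cavin2 window held 0. Of the other members, Cav2 had 2, each of the 2 annotated starts of Cav1 had 1, and both starts of Cavin1 had 0. Cavin3 had no entry. Over all 32841 promoter windows of this length in the table, 66.2% held CANNTG and 13% held CAGCTG, so an E-box in a window is common and these matches are a description of the letters only.

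The other 2 caveolins are neighbours on chromosome 6, Cav2 (ENSMUSG00000000058) at 17281185 to 17289115 and Cav1 (ENSMUSG00000007655) at 17306335 to 17341452, both on the plus strand. Cav1, the scaffold of caveolae outside muscle, had 209.7 (TRIzol), 213 and 209 CPM in siCtrl at 0 h and 293 (TRIzol), 229 and 261 CPM at 24 h. All 24 h values were above all 0 h values, by a log2 fold change of 0.31 (SE 0.12) that did not pass the threshold of 0.01 (edgeR adjusted p = 0.0473). In the libraries labelled siSMYD3#1 it went from 229 (TRIzol), 158 and 168 CPM to 318 (TRIzol), 294 and 366 CPM. With siSMYD3#2 it went from 111 (TRIzol), 99.3 and 75.9 CPM to 191 (TRIzol), 144 and 154 CPM. Cav1 thus rose in DM under both siRNAs, with no overlap of times (log2 fold changes 0.85 and 0.79, SE 0.12 each, edgeR adjusted p = 4.14e-05 and 0.000129). The estimated rise was larger than that of siCtrl under both siRNAs, with intervals above 0, but neither difference passed the threshold. For siSMYD3#1 the log2 difference of the rises was 0.53 (SE 0.17, interval 0.17 to 0.90, edgeR adjusted p = 0.263). For siSMYD3#2 it was 0.48 (SE 0.17, interval 0.11 to 0.84, edgeR adjusted p = 0.319).

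Within the siRNA experiment, the siSMYD3#2 libraries were also the lowest in Cav1 at both times. Against siCtrl, Cav1 was 2.23-fold lower at 0 h (log2 fold change −1.16, SE 0.12, edgeR adjusted p = 4.65e-05) and 1.6-fold lower at 24 h (−0.68, SE 0.12, edgeR adjusted p = 0.00198), and no siSMYD3#2 library reached the lowest siCtrl library of its time. The 24 h difference was −0.71 among NucleoSpin libraries and −0.62 among TRIzol libraries on the log2 scale. It missed the threshold without either NucleoSpin library of siSMYD3#2, without 1 NucleoSpin library of siCtrl (edgeR adjusted p = 0.0134 to 0.0149) and in a fit of all 26 libraries (0.0517). In the libraries labelled siSMYD3#1, Cav1 had no difference from siCtrl past the threshold at either time. The log2 fold change was −0.20 at 0 h (SE 0.12, edgeR adjusted p = 0.53), with −0.37 among NucleoSpin libraries and 0.12 for TRIzol. At 24 h it was 0.33 (SE 0.12, edgeR adjusted p = 0.0975). The direct comparison of the 2 siRNAs at 24 h gave 2.01-fold more Cav1 in the libraries labelled siSMYD3#1 (log2 fold change 1.01, edgeR adjusted p = 8.19e-05). The order of the 10 condition means of Cav1 ran from vector at 24 h (328 CPM ± 29, SD, n = 2) to siSMYD3#2 at 0 h (95.4 CPM ± 18, SD, n = 3), and of the 9 neighbouring pairs in that order 8 overlapped.

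Cav2, the partner of Cav1 in hetero-oligomers, did not follow it in the siRNA experiment. Extraction moved the 2 genes in opposite directions there (TRIzol against NucleoSpin, log2 fold changes 0.25 for Cav1 and −0.79 for Cav2). In SMYD3 CL5 both were higher at 24 h than at 0 h, by 1.45 and 1.00, short of the threshold (edgeR adjusted p = 0.401 and 0.849). DESeq2 called the rise of Cav1 there (adjusted p = 0.00479). Cav2 in siCtrl had 34.4 (TRIzol), 83.8 and 67.7 CPM at 0 h and 35.5 (TRIzol), 54.1 and 60.7 CPM at 24 h, which overlapped. In the libraries labelled siSMYD3#1 it was 20.2 (TRIzol), 43.7 and 45.3 CPM at 0 h, below siCtrl within each extraction but not past the threshold (log2 fold change −0.77, SE 0.17, edgeR adjusted p = 0.0152). The same difference passed with DESeq2 and among the NucleoSpin libraries alone. All 9 neighbouring pairs in the order of the Cav2 condition means overlapped.

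Among the cavins, Cavin2 showed the widest changes. Cavin2 (formerly Sdpr), a phosphatidylserine-binding cavin that shapes and elongates caveolae (ENSMUSG00000045954), lies on chromosome 1 at 51289126 to 51302960. In siCtrl it had 10.7 (TRIzol), 19.9 and 20.3 CPM at 0 h. At 24 h it had 53.3 (TRIzol), 149 and 143 CPM, above every 0 h library. This was a 6.53-fold rise (log2 fold change 2.71, SE 0.16, edgeR adjusted p = 9.14e-10). Within extractions the log2 difference was 2.86 for NucleoSpin and 2.32 for TRIzol.

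The rise of Cavin2 was also seen after siRNA treatment, to lower levels. The libraries labelled siSMYD3#1 went from 7.49 (TRIzol), 10.1 and 14.7 CPM to 15.7 (TRIzol), 32.4 and 33.4 CPM, a 2.47-fold rise (log2 fold change 1.30, SE 0.16, edgeR adjusted p = 1.04e-05). The siSMYD3#2 libraries went from 8.45 (TRIzol), 16.8 and 14.5 CPM to 23.5 (TRIzol), 61.7 and 67.7 CPM, a 3.73-fold rise (1.90, SE 0.16, edgeR adjusted p = 3.36e-07). All 24 h values were above all 0 h values under each siRNA, and each lay below the siCtrl value or values of its own extraction.

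Against siCtrl at 24 h, Cavin2 was 4.09-fold lower in the libraries labelled siSMYD3#1, with no overlap (log2 fold change −2.03, SE 0.16, edgeR adjusted p = 3.12e-07). It was 2.24-fold lower with siSMYD3#2 (−1.17, SE 0.15, edgeR adjusted p = 0.000158), where the TRIzol library of siCtrl lay below both NucleoSpin libraries of siSMYD3#2, while within each extraction the groups stood apart. Its within-extraction log2 differences were −2.15 and −1.77 for siSMYD3#1 and −1.17 and −1.18 for siSMYD3#2, NucleoSpin first. Without the extraction covariate both calls were lost (edgeR adjusted p = 0.0357 for siSMYD3#1 and 0.366 for siSMYD3#2). At 0 h the corresponding difference for siSMYD3#1 was −0.63 (SE 0.16, edgeR adjusted p = 0.0382). The difference of the rises was tested directly: the rise was smaller than in siCtrl by 1.40 on the log2 scale for siSMYD3#1 (log2 difference −1.40, SE 0.22, edgeR adjusted p = 0.00399) and by a log2 difference of −0.81 for siSMYD3#2, which missed the threshold (SE 0.22, edgeR adjusted p = 0.138). The call for siSMYD3#1 was lost when any of 8 of the 12 libraries was left out (edgeR adjusted p = 0.0101 to 0.0165), in the fit of all 26 libraries (0.0249) and without the extraction covariate. Between the siRNAs at 24 h, Cavin2 was 1.82-fold lower in the libraries labelled siSMYD3#1 (−0.87, SE 0.15, edgeR adjusted p = 0.00193), a call that was lost without 1 NucleoSpin library of either siRNA (0.0123 and 0.0139), in the fit of all 26 libraries (0.0112) and without the extraction covariate (0.553).

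Cavin4, the cavin of skeletal and cardiac muscle (ENSMUSG00000028348), lies on chromosome 4 at 48663514 to 48673502. It had 44.3 (TRIzol), 19.3 and 21.1 CPM in siCtrl at 0 h and 83.3 (TRIzol), 35.1 and 39.1 CPM at 24 h. The TRIzol library at 0 h exceeded the NucleoSpin libraries at 24 h, so the times overlapped, while within each extraction every 24 h value was higher. The rise was 1.86-fold with extraction in the model (log2 fold change 0.90, SE 0.12, edgeR adjusted p = 8.87e-06), and the log2 difference was 0.88 for NucleoSpin and 0.91 for TRIzol. Without the extraction term the same estimate did not pass (edgeR adjusted p = 0.292).

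In the libraries labelled siSMYD3#1, Cavin4 went from 58.2 (TRIzol), 19.4 and 24.5 CPM to 71.5 (TRIzol), 37.1 and 42.4 CPM, which was 1.6-fold (log2 fold change 0.68, SE 0.12, edgeR adjusted p = 0.000249). With siSMYD3#2 it went from 52.4 (TRIzol), 21.1 and 20.5 CPM to 59.7 (TRIzol), 24.9 and 22.4 CPM (0.21, SE 0.12, edgeR adjusted p = 0.203). The difference of this last rise from that of siCtrl was −0.69 (SE 0.17), which did not pass the threshold (edgeR adjusted p = 0.0853), and the one for siSMYD3#1 was −0.22 (SE 0.17, edgeR adjusted p = 0.821).

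At 24 h Cavin4 was 1.5-fold lower with siSMYD3#2 than in siCtrl (log2 fold change −0.58, SE 0.12, edgeR adjusted p = 0.0048). The log2 difference was −0.65 for NucleoSpin and −0.48 for TRIzol. This call was close to the threshold: it was lost when any 1 of the 3 siCtrl libraries or either NucleoSpin siSMYD3#2 library was left out (edgeR adjusted p = 0.0125 to 0.0378) and in the fit of all 26 libraries (0.0142). In the libraries labelled siSMYD3#1, Cavin4 had no difference past the threshold from siCtrl at 24 h (95% interval of the log2 fold change −0.25 to 0.24, edgeR adjusted p = 0.99), and it was 1.49-fold higher than with siSMYD3#2 (0.58, SE 0.12, edgeR adjusted p = 0.00563). That last call was lost without any 1 of the 4 NucleoSpin libraries compared (0.0205 to 0.0423) and in the fit of all 26 libraries (0.0129). At 24 h the muscle cavin and Cavin2 therefore stood in opposite order between the 2 siRNAs, with Cavin2 lower and Cavin4 higher in the libraries labelled siSMYD3#1.

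Cavin1 (formerly Ptrf), the cavin needed for caveolae to form (ENSMUSG00000004044), lies on chromosome 11 at 100956733 to 100970887, minus strand. It changed little. In siCtrl it had 766 (TRIzol), 594 and 639.7 CPM at 0 h and 736 (TRIzol), 589.97 and 529 CPM at 24 h. At 0 h it was higher in all 3 libraries of each siRNA than in any siCtrl library, at 797 to 984 CPM for siSMYD3#1 and 819.8 to 954 CPM for siSMYD3#2, but neither log2 fold change passed the threshold (0.39 and 0.43, SE 0.09 each, edgeR adjusted p = 0.0203 and 0.0247). At 24 h the difference for siSMYD3#1 was 0.35 (SE 0.09, edgeR adjusted p = 0.0179). DESeq2 called these 3 differences.

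Cavin3 (formerly Prkcdbp), a protein kinase C delta-binding cavin (ENSMUSG00000037060), lies on chromosome 7 at 105480083 to 105482300, minus strand, and shares 374 exon bases with the opposite-strand gene Gm45667, which had at most 5 counts in any library. It had no call in any comparison. In siCtrl its values were 54.7 (TRIzol), 68.4 and 80.2 CPM at 0 h and 79.5 (TRIzol), 79.1 and 71.7 CPM at 24 h, which overlapped. In the libraries labelled siSMYD3#1 at 24 h it was above every siCtrl library, at 84.8 to 103 CPM (log2 fold change 0.33, SE 0.13, edgeR adjusted p = 0.117).

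**Figure D2:**
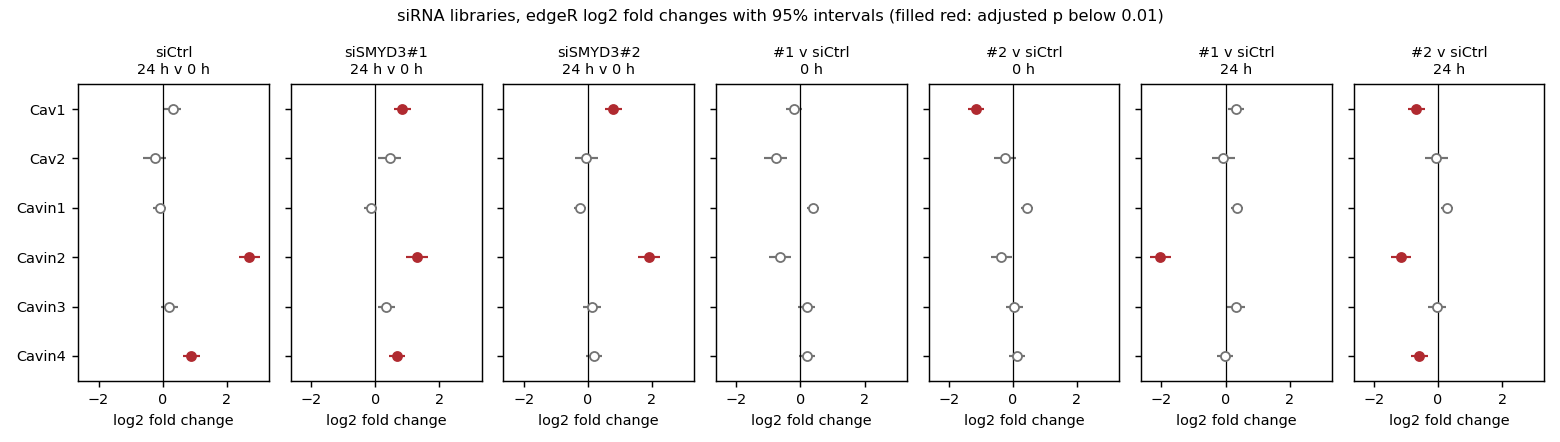
Log2 fold change (horizontal axis, shared scale) of the 6 tested members in 7 comparisons of the siRNA experiment, with 95% intervals from edgeR with extraction in the model, filled red where the adjusted p is below 0.01. Cavin2 has the longest rise (2.71 in siCtrl) and falls furthest against siCtrl at 24 h (−2.03 for siSMYD3#1), while Cav1 is lower with siSMYD3#2 at both times.

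Counted together, 2 of the 6 tested members rose in siCtrl between 0 h and 24 h and 0 fell, where 29.4% of all 15820 genes tested were called and 14.6% were called higher. Under siSMYD3#1 3 rose (25.4% of genes called, 12.7% higher) and under siSMYD3#2 2 rose (19% called, 9.11% higher). The median log2 fold change of the tested members was 0.26, 0.57 and 0.17 in these comparisons, beside 0.03, 0.02 and 0.01 for all genes. Against siCtrl at 0 h, 0 members were called by edgeR for siSMYD3#1 (1.43% of genes). There 3 members and 2196 of the 15820 genes had an unadjusted p under 0.05, and DESeq2 called 3 members. For siSMYD3#2 at 0 h 1 member, Cav1, was called (0.531% of genes called, 0.215% called lower). At 24 h 1 member, Cavin2, was lower for siSMYD3#1 (5.85% of genes either way, 2.94% lower) and 3, Cav1, Cavin2 and Cavin4, were lower for siSMYD3#2 (3.7% either way, 2.04% lower), with medians of 0.16 and −0.32 beside −0.00 for all genes in each. Between the siRNAs at 24 h 2 members were called higher and 1 lower (3.36% of genes, 2.05% higher and 1.31% lower). The rise differed from that of siCtrl for 1 member under siSMYD3#1 (0.215% of genes, 0.171% lower) and 0 under siSMYD3#2 (0.019%). For the rise under siSMYD3#2 edgeR gave 3 members and 1585 of the 15820 genes an unadjusted p under 0.05, and DESeq2 called 0 members. The comparisons with siCtrl share its libraries, so they are not independent of each other. Of the 16 calls over time or between treatments, 14 were lost without the extraction covariate, the exceptions being Cavin2 in siCtrl and Cav1 in the libraries labelled siSMYD3#1, both over time.

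The extraction term moved the members in different directions. Across the 18 siRNA libraries, Cavin4 was 2.33-fold higher in TRIzol than in NucleoSpin RNA (log2 fold change 1.22, SE 0.07, edgeR adjusted p = 6.38e-11). Cav1 and Cavin1 were also higher (0.25 and 0.26, edgeR adjusted p = 0.00692 and 0.000516). Cavin2 was 2.12-fold lower (−1.09, SE 0.10, edgeR adjusted p = 5.31e-08) and Cav2 1.72-fold lower (−0.79, SE 0.11, edgeR adjusted p = 6.5e-06). In every siRNA condition the TRIzol library was the highest of its 3 in Cavin4 and the lowest in Cavin2. In all, 3 of the 6 tested members were called higher and 2 lower, where 51.3% of all genes tested were called, 26.1% higher and 25.3% lower. The TRIzol libraries also held less of the differentiation genes at 24 h in siCtrl: 5 genes of early muscle differentiation, Myog, Mymk, Myh3, Ckm and Acta1, summed to 344 CPM in the TRIzol library and to 985 and 1194 CPM in the NucleoSpin libraries. In the libraries labelled siSMYD3#1 the TRIzol library was also the lowest, at 38.2 CPM against 74.1 and 75.5 CPM. With siSMYD3#2 the order was the other way, at 178 CPM against 168 and 152 CPM. Their part in the extraction differences was not tested.

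Against the same 5 genes, the members separated as well. Their sum was 3.22 to 5.59 CPM in siCtrl at 0 h, and at 24 h 344 to 1194 CPM in siCtrl, 152 to 178 CPM with siSMYD3#2 and 38.2 to 75.5 CPM in the libraries labelled siSMYD3#1. All 5 genes rose in siCtrl, 5 of 5 were lower at 24 h in the libraries labelled siSMYD3#1, and 4 of 5 with siSMYD3#2. Myog, the regulator that starts terminal differentiation, was lower by a log2 fold change of −3.59 for siSMYD3#1 and −1.81 for siSMYD3#2 (edgeR adjusted p = 5.4e-06 and 0.00125). At 24 h Cavin2 took the same order of the 3 conditions as this sum within each extraction for NucleoSpin and for TRIzol libraries. Cavin4 did not, since its lowest NucleoSpin values were those of siSMYD3#2.

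**Figure D3:**
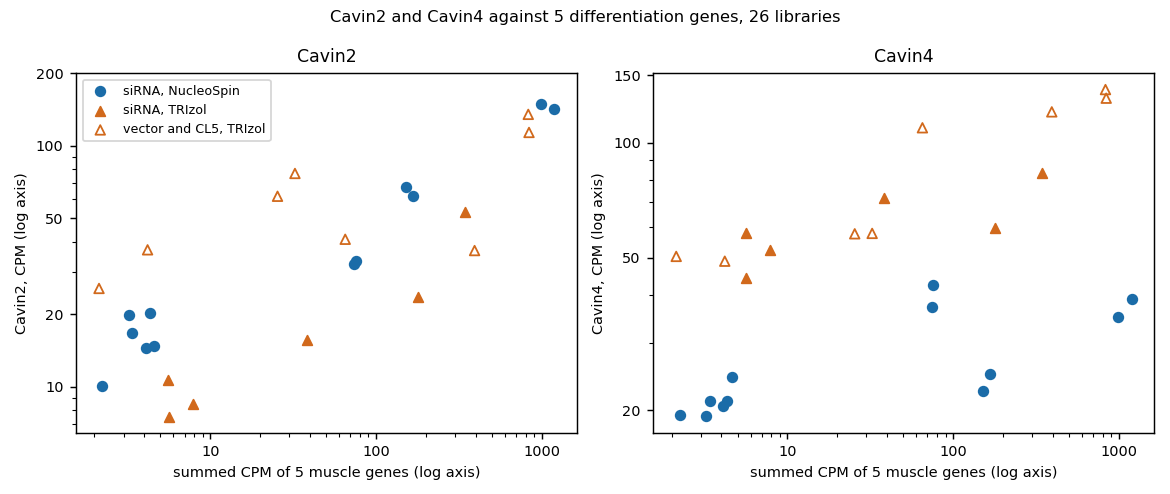
Cavin2 (left) and Cavin4 (right) in CPM against the summed CPM of Myog, Mymk, Myh3, Ckm and Acta1 in each of 26 libraries, all axes logarithmic. Filled symbols are siRNA libraries and open symbols vector and CL5 libraries, with circles for NucleoSpin and triangles for TRIzol. In each siRNA condition the TRIzol library is lowest in Cavin2 and highest in Cavin4, and the lowest NucleoSpin values of Cavin4 at 24 h (22.4 and 24.9 CPM) are those of siSMYD3#2.

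In the clone experiment 0 of the 7 members passed the edgeR threshold in any comparison. At an unadjusted p under 0.05 there were 1 member between times in vector and 3 in SMYD3 CL5, and 2 at 0 h and 3 at 24 h between the lines, while DESeq2 called 0, 2, 2 and 1. Between 24 h and 0 h no gene of 17835 did in either line (0% called). At an unadjusted p under 0.05 edgeR had 1256 genes in vector and 1137 in SMYD3 CL5, and DESeq2 called 119 and 109. Between SMYD3 CL5 and vector 1.07% of genes were called at 0 h and 0.964% at 24 h. In those 2 comparisons edgeR had 3258 and 2488 of the 17835 genes at an unadjusted p under 0.05. Cavin4 had 50.4 and 48.97 CPM in vector and 109 and 120.3 CPM in the libraries labelled SMYD3 CL5 at 0 h. At 24 h it had 57.8 and 57.9 CPM in vector and 131 and 138 CPM in SMYD3 CL5. Every SMYD3 CL5 library was above every vector library, and above every siRNA library as well. The log2 fold changes were 1.14 at 0 h (2.2-fold, SE 0.19, edgeR adjusted p = 0.0216) and 1.18 at 24 h (2.27-fold, SE 0.19, edgeR adjusted p = 0.0193), both short of 0.01 with edgeR and past it with DESeq2 (adjusted p = 3.8e-07 and 5.52e-07), without the low-count filter, and in the fit of all 26 libraries. Leaving out each library in turn gave log2 fold changes of 1.10 to 1.25 at 0 h and 1.15 to 1.21 at 24 h. Each of these fits left 1 library in a group, so their tests are not read.

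The 5 differentiation genes also moved with the lines, summing to 2.13 and 4.19 CPM in vector and 65.3 and 394 CPM in SMYD3 CL5 at 0 h, and to 25.5 and 32.5 CPM against 839 and 830.1 CPM at 24 h. Their median log2 fold change between the lines was 6.77 at 0 h and 4.63 at 24 h. Of the 5, 1 (Myog) was called at 0 h and 0 at 24 h, where 1.07% and 0.964% of all genes were called. Their part in the line differences of Cav3, Cavin2 and Cavin4 was not tested.

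Cavin2 had 25.6 and 37.0 CPM in vector at 0 h and 61.7 and 76.7 CPM at 24 h. In SMYD3 CL5 it had 40.9 and 36.7 CPM at 0 h and 114 and 135 CPM at 24 h. The times did not overlap in either line, but neither rise passed the threshold (log2 fold changes 1.11 and 1.68, SE 0.26 each, edgeR adjusted p = 0.412 and 0.264), and DESeq2 called the one in SMYD3 CL5. At 24 h the lines did not overlap either (0.82, SE 0.26, edgeR adjusted p = 0.181). The rises differed by a log2 value of 0.58, with a 95% interval from −0.27 to 1.42.

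Cav1 had 236 and 262 CPM in vector at 0 h against 145 and 77.9 CPM in SMYD3 CL5 (log2 fold change −1.23, SE 0.32, edgeR adjusted p = 0.0918), a difference called by DESeq2, without the low-count filter and in the fit of all 26 libraries. At 24 h it had 307 and 348 CPM in vector and 275 and 332 CPM in SMYD3 CL5, which overlapped. Cav1 in SMYD3 CL5 was thus below vector at 0 h and overlapped it at 24 h, its increase having a log2 fold change of 1.45 (SE 0.32, edgeR adjusted p = 0.401) against 0.36 (SE 0.32) in vector. The increase in SMYD3 CL5 was called by DESeq2 (adjusted p = 0.00479), without the low-count filter and in the fit of all 26 libraries. The 2 SMYD3 CL5 libraries at 0 h stood apart from each other. Cav2 was 49.9 CPM in one and 15 CPM in the other, and the 5 differentiation genes summed to 65.3 and 394 CPM. Leaving out each of the 4 libraries of the comparison at 0 h gave log2 fold changes of Cav1 from −1.70 to −0.82. Cavin1 was lower in every SMYD3 CL5 library than in any vector library (547 and 771 against 924 and 912 CPM at 0 h, 677 and 688 against 957 and 942 CPM at 24 h), without passing the threshold (log2 fold changes −0.55 and −0.50, SE 0.25 each, edgeR adjusted p = 0.298 and 0.443).

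**Figure D4:**
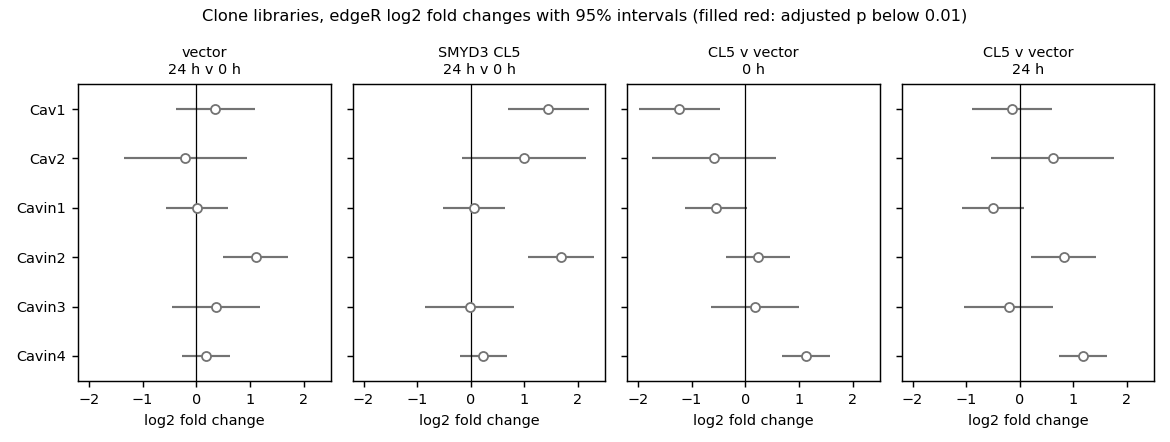
Log2 fold change (horizontal axis, shared scale) of the 6 members with counts in every library, in 4 comparisons of the clone experiment, with 95% intervals from edgeR. Open symbols mark adjusted p of 0.01 or more, which holds for all. Cavin4 against vector (1.14 and 1.18) and Cavin2 over time (1.11 and 1.68) have intervals above 0. So do Cavin2 against vector at 24 h (0.82) and Cav1 over time in SMYD3 CL5 (1.45), while that of Cav1 against vector at 0 h (−1.23) lies below 0.

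The muscle member's weight among the cavins follows from these values. Cavin4 made up 5.46% ± 2.15 (SD, n = 3) of the summed cavin level per kilobase in siCtrl at 0 h and 8.87% ± 3.67 at 24 h, with wide spread since its share was 7.94% in the TRIzol library at 0 h and 13% in that at 24 h, against 4.22% to 7.42% in the NucleoSpin libraries of both times. In the siRNA-treated cells its group mean lay between 4.92% and 7.78%. In vector cells it was 7.12% ± 0.0688 at 0 h and 7.4% ± 0.114 at 24 h (SD, n = 2 each). In SMYD3 CL5 it was 18.3% ± 3.07 at 0 h and 18.5% ± 0.866 at 24 h (SD, n = 2 each), above every other library. The muscle caveolin had no such weight, its group mean share of the caveolins being 0.327% or less everywhere.

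**Figure D5:**
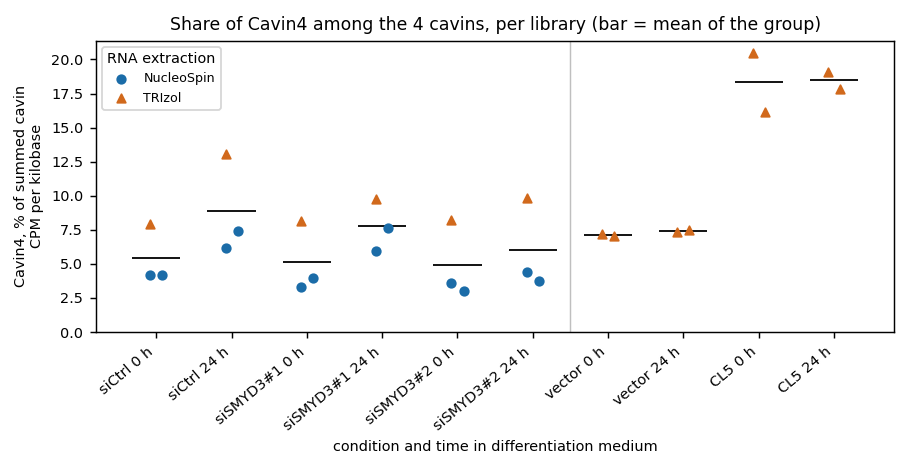
Share of Cavin4 in the summed level of the 4 cavins per kilobase (vertical axis, percent, from 0) in the 10 conditions. Points are libraries, circles for NucleoSpin and triangles for TRIzol, and bars are group means. The 4 SMYD3 CL5 libraries stand above all others, at group means of 18.3% and 18.5% against 7.12% and 7.4% in vector.

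Over the 26 libraries the members did not move as a unit. On log2 CPM, Cav3 ran most like Cavin2 (Pearson r = 0.81) and less like its fellow muscle member Cavin4 (0.32). Within experiments, Cav3 and Cavin2 had r = 0.90 over the 18 siRNA and 0.76 over the 8 clone libraries, whereas Cav3 and Cavin4 had 0.13 and 0.73. Cavin2 and Cavin4 had r = 0.35 over all libraries, 0.00 over the siRNA libraries, whose TRIzol libraries were lower in Cavin2 and higher in Cavin4, and 0.52 over the clone libraries. Cav1 and Cav2 had r = 0.24 over all, −0.10 over the siRNA and 0.78 over the clone libraries. The libraries of these correlations share conditions, extraction and depth, and low counts of Cav3 limit its values, so they are descriptions. Among 12921 genes with a mean of at least 1 CPM, those most like Cavin4 were Gstm2 (0.96), Igsf10 (0.95) and Gm12439 (0.95), and those most like Cavin2 were Neurl1a (0.92), Erbb3 (0.91) and Ccdc162 (0.90). Those most like Cav1 were C1qtnf1 (0.79), Rbm20 (0.79) and Prkx (0.79). For Cav3, with 12922 genes compared, they were Mylf-ps (0.89), the fast troponin I gene Tnni2 (0.89) and the sarcoplasmic calcium pump gene Atp2a1 (0.88).

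Genes that work with caveolae were counted beside the members. Of 9 listed genes, those of caveolar neck and membrane-shaping proteins (dynamin, EHD and pacsin proteins) and Ror1, 7 were tested. In siCtrl between 0 h and 24 h 0 of them passed the edgeR threshold. An unadjusted p under 0.05 was given to 3 of them and to 7755 of the 15820 genes. Ehd4 was lower at 24 h in the libraries labelled siSMYD3#1 (log2 fold change −0.56, SE 0.13, edgeR adjusted p = 0.00814). Of 4 flotillin and stomatin genes, Flot1 and Stom rose in siCtrl (0.81 and 0.51, edgeR adjusted p = 8.87e-06 and 0.000766) and Stoml2, a mitochondrial member, fell (−0.34, edgeR adjusted p = 0.00639).

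Of 10 genes of membrane repair and T-tubule formation, 5 rose in siCtrl and 0 fell (29.4% of all genes called, 14.6% higher). Trim72, which encodes the muscle repair protein MG53, a partner of Cav3, rose by a log2 fold change of 5.13 (SE 0.51, edgeR adjusted p = 4.38e-07), followed by Capn3 (1.41), Bin1 (0.64), and Dysf (0.97), which encodes dysferlin. Against siCtrl at 24 h Trim72 was lower by −2.62 for siSMYD3#1 and −2.07 for siSMYD3#2 (edgeR adjusted p = 0.000402 and 0.00377), and Dysf was lower for siSMYD3#1 (−0.70, edgeR adjusted p = 0.00421). Of 13 signalling genes placed in caveolae, 12 were tested and 5 rose in siCtrl against the same background of 14.6% higher, among them the TGF-beta receptor Tgfbr2 (1.13, SE 0.16, edgeR adjusted p = 2.99e-05), the inducible nitric oxide synthase Nos2 (5.12, SE 0.80, edgeR adjusted p = 0.000111) and the kinase Fyn (0.75, SE 0.17, edgeR adjusted p = 0.00172). Nos2 was lower at 24 h with siSMYD3#2 (−3.57, edgeR adjusted p = 0.00666). In SMYD3 CL5 against vector, 1 of these lists' genes was called, Egfr, which was lower at 0 h (−2.57, SE 0.30, edgeR adjusted p = 0.00615).

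Caveolae are abundant in fat, endothelial and smooth muscle cells, so markers of these were read in the same libraries. Of the 6 endothelial markers, Kdr, Tek and Vwf were at most 2.42, 1.26 and 0.987 CPM and Cdh5, Pecam1 and Cldn5 at most 0.26, 0.179 and 0.176 CPM, with Cldn5 at 0 in 23 libraries. Tek and Vwf, 2 of the 3 tested, rose in siCtrl over time (median of the 3 log2 fold changes 2.17). The sum of the 6 was 0.563 to 1.38 CPM in siCtrl at 0 h and 0.977 (TRIzol), 4.89 and 4.06 CPM at 24 h, against 0.344 to 2.41 CPM in the libraries labelled siSMYD3#1 and 0.805 to 1.17 CPM with siSMYD3#2 at 24 h. At 24 h 0 of the 3 tested were called against siCtrl for either siRNA, with medians of −1.80 and −2.22. Their part in the Cavin2 differences was not tested. The adipocyte genes Adipoq, Lep and Plin1 were at most 0.0759, 0 and 0.12 CPM, while Pparg and Cebpa, also expressed in myoblasts, reached 28.1 and 36.02 CPM and Fabp4 1.58 CPM. Pparg, 1 of the 2 tested, fell in siCtrl (log2 fold change −1.20, edgeR adjusted p = 0.00619), where the 6 adipocyte markers summed to 21.9 to 30.5 CPM at 0 h and 12.6 to 14.3 CPM at 24 h. Their part was not tested. Myh11 of mature smooth muscle was at most 0.271 CPM, whereas Acta2, which C2C12 cells also express, ran from 747 to 4889 CPM, Smtn from 59.7 to 159, Lmod1 from 0.524 to 20.8 and Cnn1 from 0.286 to 16.3 CPM. Of the 4 tested, Acta2, Lmod1 and Smtn rose in siCtrl over time (median of the 4 log2 fold changes 0.78). Acta2, Lmod1 and Cnn1 were higher and Smtn lower in TRIzol than in NucleoSpin RNA, with a median of 1.54. The 5 smooth muscle markers summed to 835 to 2305 CPM at 0 h and 1929 to 4116 CPM at 24 h in siCtrl, the TRIzol library being the highest at each time, and to 1439 to 2213 CPM in vector and 2304 to 4550 CPM in SMYD3 CL5 over both times. Their part in the member differences was not tested. The myoblast genes were above 0 in every library but not steady. Myod1 ran from 4.77 to 104 CPM, Myf5 from 8.88 to 113, Des from 68.5 to 1539, Cdh15 from 73.5 to 440 and Vim from 4241 to 7255 CPM. Of these 5, 2 rose in siCtrl over time (14.6% of all genes called higher). In TRIzol against NucleoSpin RNA 1 was called higher and 3 lower, with a median of −0.93, where 51.3% of all genes were called. In SMYD3 CL5 against vector, Myog was called higher at 0 h (log2 fold change 6.86, SE 0.89, edgeR adjusted p = 0.00885).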

How the data were processed

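RNA-seq libraries (paired end, stranded mRNA) were made from 26 C2C12 cultures. The deposited values are raw counts of reads per gene, which the authors made by aligning to GRCm38 with HISAT2 2.1.0 and counting with featureCounts (Subread 1.6.3), after FastQC 0.11.5. The annotation release, strand and multi-mapping settings are not given in the sources used here. Gene positions and exon lengths were taken from GENCODE M21, which held 54495 of the 55341 IDs.

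Counts were tested with edgeR 4.0.16 in R 4.3.3 (quasi-likelihood F test, TMM, filterByExpr, Benjamini-Hochberg over all genes tested, threshold 0.01). The siRNA fit held 18 libraries, 15820 genes and extraction as covariate. The clone fit held 8 libraries and 17835 genes. No 2 libraries were identical, and replicates differed by more than sampling noise (smallest chi-square per degree of freedom 3.04). The fits were tested on simulated counts. Same-numbered siRNA libraries, numbered by the study's library list, deviated together (r = 0.299 to 0.806), though within NucleoSpin r was −0.031 to 0.132. Intervals are 95% intervals.

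The text names the 7 members, Smyd3, up to 4 genes a list by smallest adjusted p in siCtrl over time or where a result turns on them, and the 3 genes most like Cav1, Cav3, Cavin2 and Cavin4. Members and lists were chosen with earlier results of these data known. Alternatives were DESeq2 1.42.0, RLE factors, no low-count filter, a threshold of 0.05, a replicate block, no extraction covariate, NucleoSpin libraries alone, all 26 libraries in one fit, and leaving out each library.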

Additional observations from a re-analysis of the deposited data

Results flagged for a closer look

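The rise of Cavin2 between 0 h and 24 h differed between treatments by a direct test of the difference: it was smaller in the libraries labelled siSMYD3#1 than in siCtrl, by a log2 difference of −1.40 (SE 0.22, 95% interval −1.87 to −0.93, edgeR adjusted p = 0.00399). The call was lost when any of 8 of the 12 libraries was left out (edgeR adjusted p = 0.0101 to 0.0165), in the fit of all 26 libraries (0.0249) and without the extraction covariate. These libraries were labelled siSMYD3#1, in which Smyd3 was not called lower.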

How the results depend on the processing

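Of 250 alternatives to the 21 member results past the threshold, 209 kept direction and call, 41 lost the call and 0 reversed, with 7 results keeping theirs throughout. Of these 7, 5 are the TRIzol against NucleoSpin results, run under 4 alternatives each. Of the 16 results over time or between treatments, 2 kept their call throughout (Cavin2 in siCtrl and Cav1 in siSMYD3#1, both over time) and 14 lost it without the extraction covariate. The causes were not tested. The replicate block for paired libraries changed no member's call (Cavin2, siSMYD3#1 against siCtrl at 24 h, edgeR adjusted p = 1.33e-06). Depth limits Cav3, with at most 18 counts in a library.

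Counts of members past the threshold that moved by more than 1.5 times were as follows. Without the extraction covariate, over time 2 became 1 in siCtrl, 3 became 1 in siSMYD3#1 and 2 became 0 in siSMYD3#2. Against siCtrl, 1 became 0 for siSMYD3#2 at 0 h, and at 24 h 1 became 0 for siSMYD3#1 and 3 became 0 for siSMYD3#2. Between the siRNAs 3 became 0, and for the rise under siSMYD3#1 1 became 0. At a threshold of 0.05 there were 5 over time in siSMYD3#1, 3 and 2 against siCtrl at 0 h for siSMYD3#1 and siSMYD3#2, 2 at 24 h for siSMYD3#1, and 1 at each time between SMYD3 CL5 and vector. The share of all genes called at 0.05 is not given here, so these counts show nothing particular to the members. DESeq2 called 3 and 2 at 0 h and 2 at 24 h in the same siRNA comparisons, 2 over time in SMYD3 CL5, and 2 and 1 between SMYD3 CL5 and vector. Without the low-count filter there were 2 and 2 against siCtrl at 0 h, 2 and 1 for the rises under siSMYD3#1 and siSMYD3#2, 2 over time in SMYD3 CL5, and 2 and 1 between the lines. NucleoSpin libraries alone gave 2 and 2 against siCtrl at 0 h. All 26 libraries in one fit gave 1 for siSMYD3#2 against siCtrl and 1 between the siRNAs at 24 h, 0 for the rise under siSMYD3#1, 1 over time in vector, 2 in SMYD3 CL5, and 2 between the lines at each time.

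Leaving out each library gave 1 to 3 members for siSMYD3#2 against siCtrl and between the siRNAs at 24 h, and 0 to 1 for the rise under siSMYD3#1. In the clone experiment each such fit left 1 library in a group, so its calls are not counted. The largest Cav1 log2 fold changes in SMYD3 CL5 over time (1.95) and against vector at 0 h (−1.70) came without its first 0 h library. That library was the one with 65.3 CPM of the differentiation genes. Cavin4 in siSMYD3#1 against siCtrl at 24 h, a log2 fold change near 0, changed sign without the filter (0.0041), in NucleoSpin libraries alone (0.0944), in the fit of all 26 (0.000402) and without 1 NucleoSpin siCtrl library (0.0489) or the TRIzol siSMYD3#1 library (0.135), the leave-outs ranging from −0.119 to 0.135.

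Over all genes, calls over time numbered 4655, 4016 and 3004 in siCtrl, siSMYD3#1 and siSMYD3#2, against 1676, 1053 and 583 without the covariate and 2838, 2047 and 1264 with all 26 libraries. Calls for siSMYD3#1 against siCtrl at 24 h numbered 926, against 102 without the covariate, 342 with all 26 libraries and 1772 in NucleoSpin alone. For siSMYD3#2 they numbered 586, against 18, 88 and 1275. Between SMYD3 CL5 and vector they numbered 191 and 172, against 1041 and 880 with DESeq2, 1246 and 1032 without the filter and 1995 and 1334 with all 26 libraries. Against siCtrl at 0 h they numbered 226 for siSMYD3#1 and 84 for siSMYD3#2, against 15 and 5 without the covariate and 523 and 205 with DESeq2.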
